A study of Saccharomyces cerevisiae with 16 samples.

Results

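In small subunit (SSU) processomes of the helicase mutant Has1-H375A, dimethyl sulfate (DMS) raised the mutation rate at 676 of the 1766 A and C nucleotides of the pre-rRNA that were read deeply enough, and 539 others were low in signal, with a mean rise under 0.2 percentage points. The profile of the pre-rRNA held 3042 A and C nucleotides in 6647 nt. The 1766 used here, 1048 A and 718 C, were all those with an effective depth (reads of sufficient quality covering the nucleotide) of 100 or more in every one of the mutant's 8 libraries. Of these 1766, 536 lay in 25S and 29 in 5.8S, RNAs of the large subunit. The other 1276 of the 3042 were under that depth in at least 1 library and are not described.

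The particles had been purified from Saccharomyces cerevisiae harvested in mid-log growth in YPD, through a TAP tag on Utp10, a protein of the processome. The cells carried Has1 with the H375A substitution, and the labels do not say whether a wild-type copy of HAS1 was still present. There were 4 libraries treated with 1% DMS for 5 min at 30 °C and 4 untreated libraries of the same 4 replicate numbers, described as biological replicates. The whole series had 16 libraries, the other 8 being DMS-treated and untreated libraries of cells with wild-type (WT) Has1.

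The SSU processome is the large nucleolar particle in which the precursor of 18S rRNA folds and is cut free of its spacers. The 5' external transcribed spacer (5' ETS) ends at the A1 cleavage site, where 18S begins, and internal transcribed spacer 1 (ITS1) is cut at the A2 site. The U3 and U14 small nucleolar RNAs pair with the pre-rRNA in the particle, and DEAD-box helicases such as Has1 help to part such pairings. DMS methylates the pairing face of A and C where it is not engaged in a base pair or shielded by protein, and reverse transcription through the methylated base leaves a mutation. The rate at a site is an average over all RNA molecules in the purification, so a base open in few molecules and a base partly accessible in all of them cannot be told apart.

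Sequences are printed 5' to 3' from the deposited profiles, in lower case, with capitals for A and C called higher with DMS. Positions are numbered along the profile, with 1 as its 5'-most nucleotide. The 3 windows of 60 nt with the highest signal and the 3 with the lowest are shown, each from its first to its last site used, because they hold the densest and the sparsest signal. They were ranked by the mean of each site's signal over the mean signal of its base, and are described without a test.
5' ETS, positions 275 to 330, high: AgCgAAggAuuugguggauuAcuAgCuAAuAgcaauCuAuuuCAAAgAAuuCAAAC
18S, nucleotides 1671 to 1722, high: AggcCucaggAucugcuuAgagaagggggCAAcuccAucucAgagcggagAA
25S, nucleotides 589 to 619, high: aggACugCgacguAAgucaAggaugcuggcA
18S, nucleotides 619 to 674, low: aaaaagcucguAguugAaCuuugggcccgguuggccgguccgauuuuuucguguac
25S, nucleotides 6 to 31, low: accucaaaucagguaggAguAcccgc
25S, nucleotides 1283 to 1308, low: ccgAaugaacuagcccugaaAAugga
Lower-case a and c in these lines are either not called or too shallow to be used.

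DMS acted mainly on A and then on C. Over the A sites the mean rate was 0.910%, 1.17%, 1.27% and 1.23% in DMS replicates 1 to 4, against 0.386% to 0.426% in the untreated libraries. The DMS mean was 1.14% ± 0.16 and the untreated mean 0.402% ± 0.017 (SD, n = 4 each), a 2.85-fold difference. C sites averaged 0.763% ± 0.031 with DMS and 0.370% ± 0.020 without, 2.06-fold. G, at 0.489% ± 0.017 with DMS and 0.441% ± 0.012 without, and U, at 0.423% ± 0.011 and 0.395% ± 0.012, rose by far less. For each of the 4 bases every DMS library lay above every untreated library (exact permutation test, two-sided, p = 0.0286, the smallest that 4 libraries against 4 allow, and 0.0286 after adjustment over the 4 bases). With equal replicate numbers as pairs, the exact sign-flip permutation p was 0.125 for each base, the smallest that 4 pairs allow. Replicate 1 stood below the other DMS libraries at A but not at C.

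**Figure D1:**
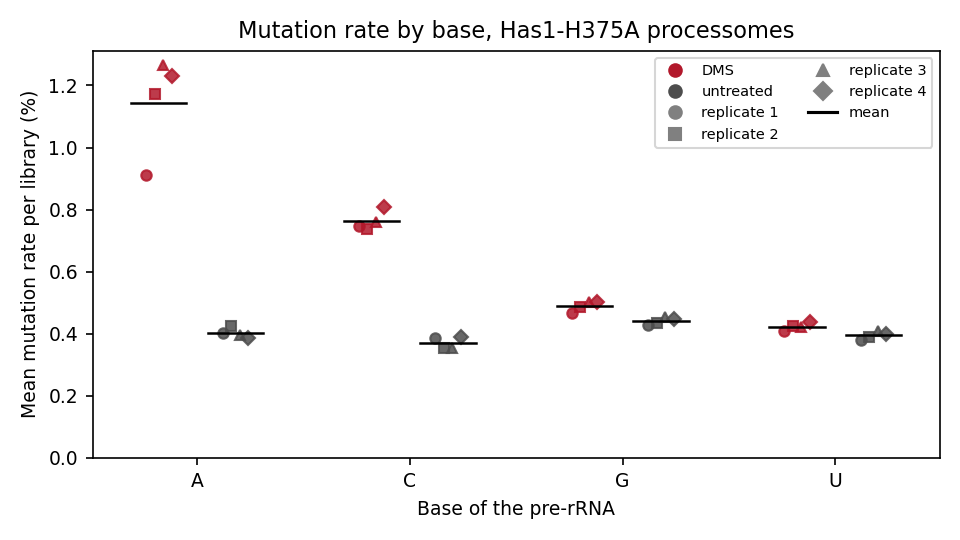
Mean mutation rate in percent (y axis) over the nucleotides of each base (x axis) with an effective depth of 100 or more, for the DMS libraries (red, left) and untreated libraries (grey, right) of the Has1-H375A mutant. Symbols are single libraries and bars are means; at A the DMS libraries sit at 0.910% to 1.27% and the untreated ones at 0.386% to 0.426%.

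The signal of a site is its DMS rate minus the untreated rate of the same replicate, in percentage points. It averaged 0.743 ± 0.165 over A sites and 0.393 ± 0.025 over C sites (SD, n = 4). A exceeded C in 4 of 4 replicates, by 0.350 ± 0.142 (exact sign-flip permutation test, p = 0.125, the smallest that 4 pairs allow). Across the 1766 sites, which share libraries and their depth, the signals of different replicates correlated with Pearson's r of 0.523 to 0.643 for pairs with replicate 1 and 0.688 to 0.868 for the other pairs.

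Sites were called open where the DMS rate was higher by edgeR's quasi-likelihood test on mutated reads with an adjusted p under 0.05. The fit covered all 3812 nucleotides of any base with the depth, of which 18.2% were called higher. Of A sites 511 were open, or 48.8%, and of C sites 165, or 23%, 38.3% of both together. Among G and U, which show how often the test calls bases whose pairing face DMS does not methylate in this way, 19 of 2046 were called higher, or 0.929%. These were 13 G, 1.26% of all G tested, and 6 U, 0.593% of all U tested. At 453 of the 676 open sites every DMS library lay above every untreated one, and at 518 the signal was above 0 in each of the 4 replicates. Over all 1766 sites, open or not, 514 had every DMS library above every untreated one (29.1%). The open sites were called on these same rates, so these counts are not separate support for the calls. Open sites had a median signal of 1.06 percentage points and ranged from 0.012 to 9.67. The call has no minimum size, so some open sites had a signal under the 0.2 percentage points used below for low sites. With DMS replicate 3, the deepest DMS library, left out, 440 sites were called, all of them among the 676. DESeq2 called 437, also all among the 676, and gave no adjusted p at 411 sites.

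Signal was concentrated in few bases. The 177 sites with the largest signal carried 44.04% of the summed signal, and 105 sites had at least 2 percentage points, 69 of them A. The median signal over all sites was 0.34 percentage points, 0.51 for A and 0.16 for C. At G and U the median was 0.038.

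A site was called low in reactivity where its mean signal was under 0.2 percentage points and the upper 95% Newcombe limit of the pooled difference, which covers counting error only, was under 0.5. This held for 351 C sites, 48.9% of them, and for 188 A sites, 17.9%. The definition has no lower bound, and 76 low sites had a mean signal under -0.2, down to -1.02 at C3333 (25S 82), which read 0.024% ± 0.048 with DMS and 1.04% ± 1.496 without (SD, n = 4). The remaining 550 sites were neither open nor low at this depth and are left undecided. Of the 67 sites with an untreated rate of 1% or more, where DMS adds to a high background, 14 were open. The highest was A1319 (18S 619), with 5.01% ± 0.60 in DMS libraries and 5.10% ± 0.48 in untreated ones (SD, n = 4), which was low in DMS signal in spite of its mutation rate.

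**Figure D2:**
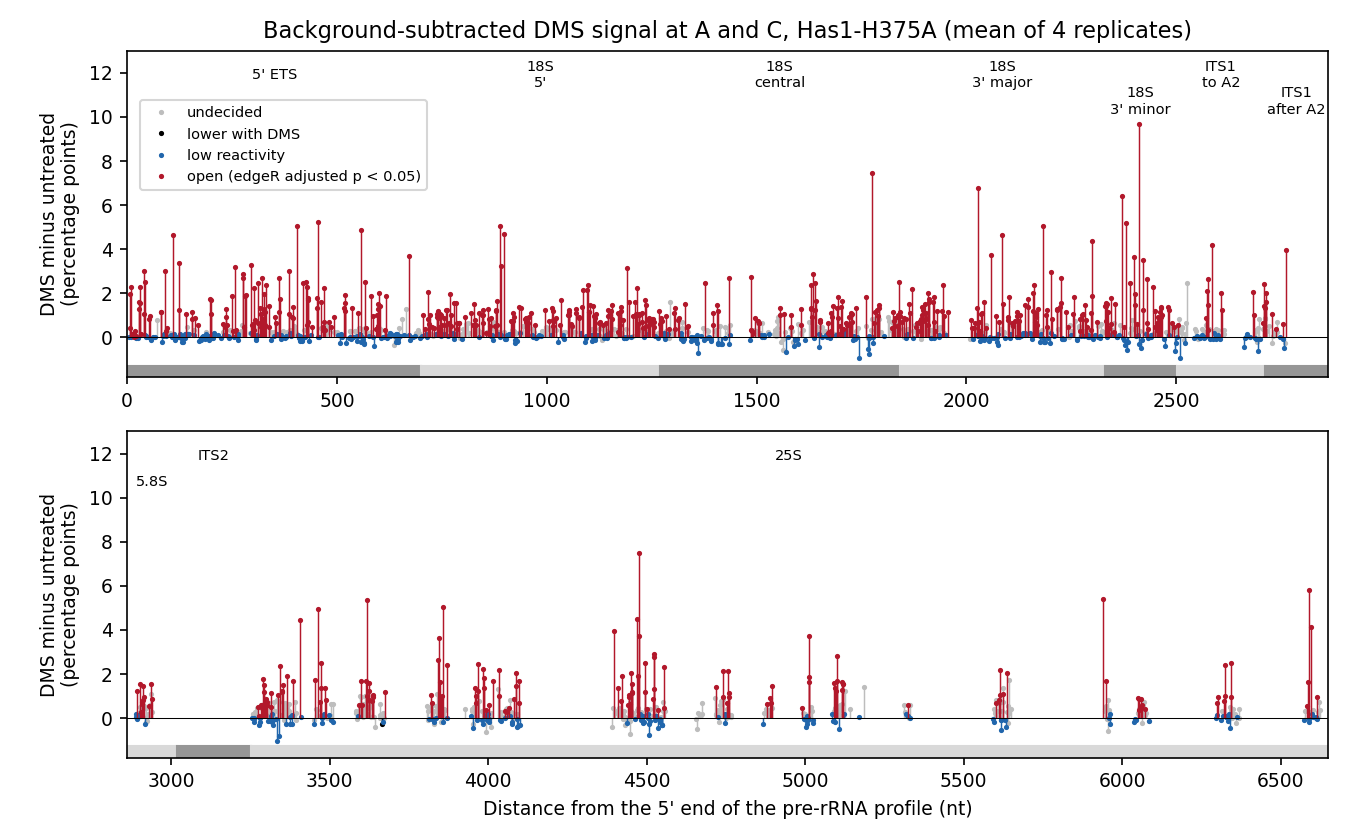
Mean DMS signal of 4 replicates in percentage points (y axis) at each A and C site used, along the pre-rRNA in nucleotides from the 5' end of the profile (x axis, continued in the lower panel), coloured by class. Open sites (red, 676) occur in every region that was read, low-reactivity sites (blue, 539) lie among them, and gaps are nucleotides under the depth minimum.

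The largest signals were at single bases of 18S and 25S. A2412, nucleotide 1712 of 18S in helix 44, the long helix that later carries the decoding site, read 8.0%, 11.5%, 12.4% and 9.42% in DMS replicates 1 to 4, against 0.602%, 0.567%, 0.534% and 0.913% in the untreated libraries. The groups did not overlap, and the fitted log2 change was 4.20 (SE 0.39, edgeR adjusted p = 2.03e-24) at depths of 175 to 4117 reads. A2371 and A2381, 18S 1671 and 1681 in the same helix, averaged 7.95% ± 1.65 and 5.49% ± 1.19 with DMS, against 1.53% ± 0.91 and 0.302% ± 0.246 without (SD, n = 4). A2371 thus had a raised rate before DMS, up to 2.86% in untreated replicate 1.

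C1775, 18S 1075 in the central domain, which forms the platform of the subunit, was the most reactive C. It read 8.45%, 7.78%, 6.79% and 9.25% with DMS and 0.448%, 0.599%, 0.452% and 0.952% without (log2 change 3.90, SE 0.43, edgeR adjusted p = 1.07e-17). The other C named for that domain, C1634 (18S 934), reached 3.15% ± 0.86 with DMS and 0.258% ± 0.181 without. In the 3' major domain, which becomes the head, A2029 (18S 1329) read 4.11%, 9.09%, 7.94% and 6.56% with DMS and at most 0.304% without. A2183 (18S 1483) averaged 5.42% ± 0.68 and 0.381% ± 0.137. In the 5' domain, the larger part of the subunit's body, A888 and A898 (18S 188 and 198), 10 nt apart, averaged 5.38% ± 0.63 and 5.11% ± 0.48 with DMS, against 0.309% ± 0.062 and 0.431% ± 0.234 without.

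In the 5' ETS the strongest sites were C454 and A405. C454 read 5.21%, 6.33%, 5.89% and 6.72% with DMS and 0.737%, 0.713%, 1.15% and 0.634% without, at depths of 461 to 15006 reads (log2 change 2.77, SE 0.32, edgeR adjusted p = 4.12e-16). A405 averaged 5.44% ± 1.10 with DMS and 0.383% ± 0.095 without. In ITS1 before A2 the strongest were A2585, at 4.67% ± 0.70 and 0.481% ± 0.121, and C2575, at 2.93% ± 0.90 and 0.304% ± 0.124. Beyond A2, C2762 averaged 4.48% ± 1.78 with DMS and 0.511% ± 0.429 without (SD, n = 4), at depths of 102 to 2040 reads. These spacers are cut away during maturation. The largest mean signals were 5.23 percentage points at C454 and 4.19 at A2585, below the 9.67 of A2412.

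25S belongs to the large subunit and is not a component of the SSU processome, yet its reads allowed 536 of its 1561 A and C to be used. A4476, A6587, A5940 and A3617 (25S 1225, 3336, 2689 and 366) had DMS means of 5.47% to 8.09%, against untreated means of 0.051% to 0.599%. In 5.8S, A2904 (nucleotide 43) averaged 1.86% ± 0.98 with DMS and 0.320% ± 0.256 without, and C2911 (nucleotide 50) 1.58% ± 0.49 with DMS and 0.117% ± 0.142 without. Whether the reads of 25S and 5.8S came from precursors in the particles or from other ribosomes in the purification was not tested. The 21 open sites named by size, C2714 at the A2 site among them, kept their call without any 1 of the 8 libraries and with DESeq2.

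**Figure D3:**
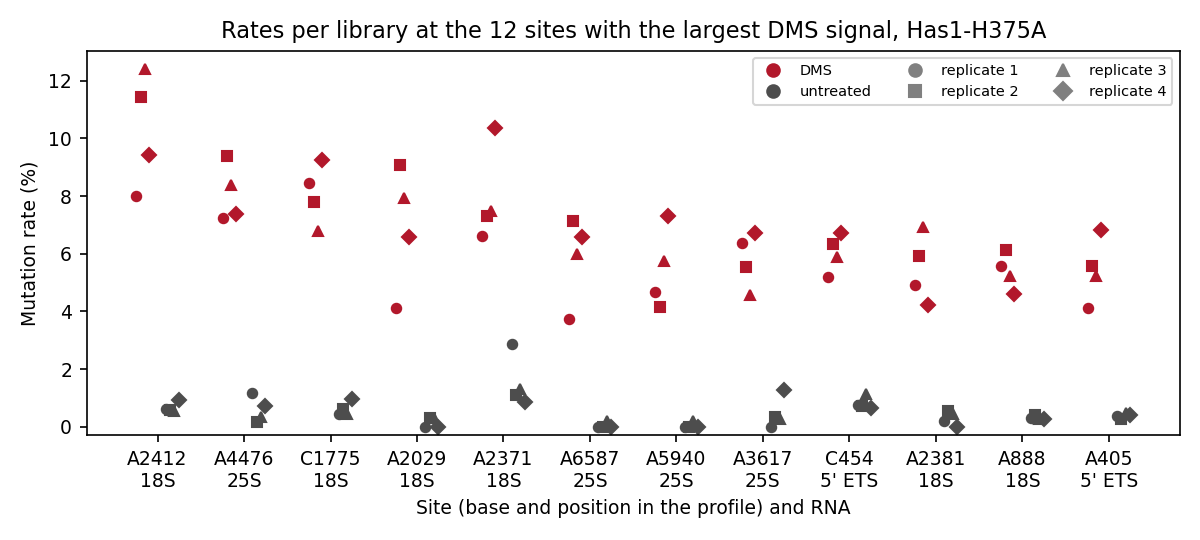
Mutation rate in percent (y axis) in each DMS library (red, left) and untreated library (grey, right) at the 12 open sites with the largest mean signal (x axis), named by base and position. Symbols mark replicates; every DMS value lies above every untreated value of its site, and the highest untreated value is 2.86% at A2371.

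A single A or C site was called lower with DMS, 0.0566% of the A and C tested and 0.0262% of all 4 bases. A3667 (25S 416) had 0 mutated reads in all 4 DMS libraries and 0.516%, 0%, 0.614% and 0% in the untreated ones (log2 change -3.48, SE 1.32, edgeR adjusted p = 0.0456). The groups overlapped, and the call ended with the replicate number as a block (edgeR adjusted p = 0.309). It ended too without untreated replicate 1 or 3 or without any 1 of the DMS libraries, with adjusted p of 0.058 to 0.418.

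Every region with at least 10 sites of a base had a higher mean rate with DMS, 17 of 17 region and base pairs, each with no overlap between DMS and untreated libraries (exact permutation p = 0.0286, adjusted 0.0286). Among A sites the mean signal was largest in the 3' minor domain of 18S, which holds helices 44 and 45, at 1.19 ± 0.26 percentage points (SD, n = 4; 49 sites). Next came the 3' major domain with 0.963 ± 0.215, the 5' domain with 0.755 ± 0.160 and 25S with 0.716 ± 0.187. The 5' ETS had 0.679 ± 0.113, the central domain 0.650 ± 0.154, 5.8S 0.591 ± 0.307 and ITS1 up to A2 0.555 ± 0.103. Each gap between neighbours in this order was smaller than the larger of their 2 SDs. Replicate 1 was the lowest of the 4 in each region. By the median over sites the 3' minor domain, at 0.645, lay below the 3' major domain, at 0.751, and the 5' domain, at 0.650.

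Set against 18S within the same libraries, the 195 A sites of the 5' ETS had the lower signal in 4 of 4 replicates. The signal of the 5' ETS was 0.523, 0.672, 0.768 and 0.754 percentage points in replicates 1 to 4, against 0.558, 0.849, 0.945 and 0.930 at the 461 A sites of 18S. The difference, 5' ETS minus 18S, was -0.141 ± 0.071 (SD, n = 4; exact sign-flip permutation p = 0.125, the smallest possible). With medians over sites it was -0.194 and with pooled reads -0.0861, each lower in 3 of 4 replicates (exact sign-flip permutation p = 0.25). Among C sites the order of the means differed. The 117 C sites of the 5' ETS had 0.521 ± 0.042 percentage points, the 5' domain 0.449 ± 0.028, the 3' minor domain 0.420 ± 0.028, the 3' major domain 0.390 ± 0.034 and the central domain 0.323 ± 0.049. By the median C site the 5' ETS was the lowest of these 5, at 0.106, against 0.222 in the 5' domain, 0.207 in the 3' minor, 0.183 in the 3' major and 0.150 in the central domain. The 10 C sites of ITS1 beyond A2 had 0.823 ± 0.171, at depths close to the minimum.

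**Figure D4:**
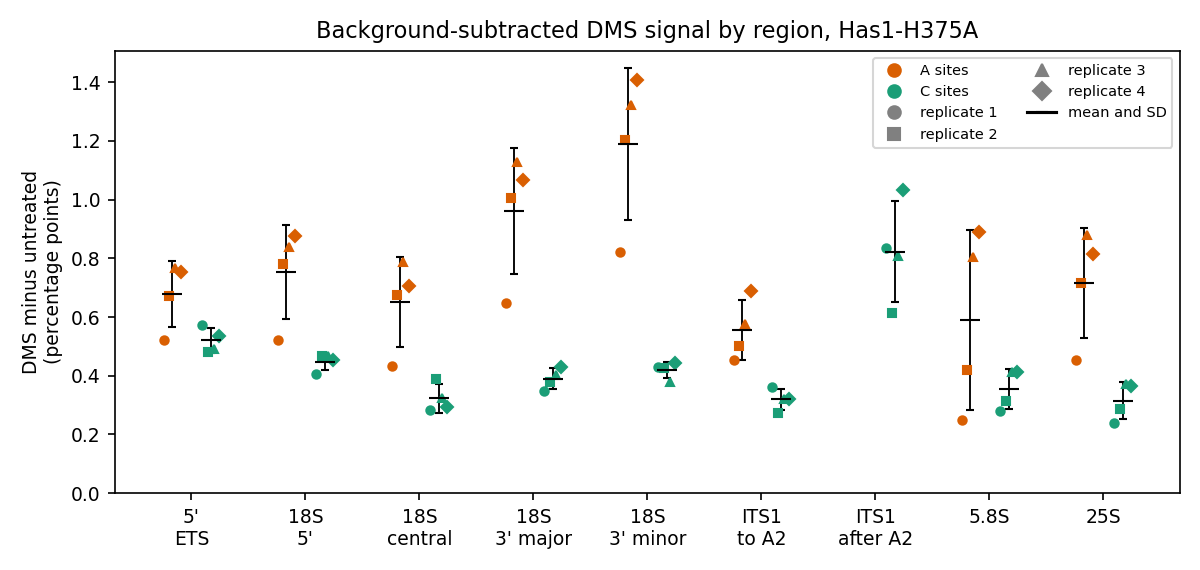
DMS signal in percentage points (y axis) averaged over the A sites (orange, left) and C sites (green, right) of each region (x axis) in each replicate, with mean and SD of 4 replicates. The A sites of the 3' minor domain sit highest, at 0.821 to 1.41, and replicate 1 is the lowest of the 4 at the A sites of every region shown.

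Shares of open and low sites by region are given without a test. In the 5' domain 144 of 276 sites were open (52.2%) and 64 were low (23.2%), while in the 5' ETS 121 of 312 were open (38.8%) and 135 low (43.3%). The 3' major and 3' minor domains had 48.1% and 48.2% open, and the central domain 37.4%. In ITS1 up to A2, 15 of 72 sites were open (20.8%), and in 25S 152 of 536 (28.4%). These last 2 were also the shallower regions, with a median lowest depth of 127 and 120 reads, against 540.5 in the 5' ETS and 418 in the 5' domain, and depth affects how many sites can be called. A greater depth also makes the upper limit that a low call needs easier to reach. In the 5' ETS 56 of 312 sites were undecided, against 239 of 536 in 25S. How far depth shaped these shares was not tested.

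The 5' ETS held the longest run of open sites and the longest run without one. By the ranking of 60 nt windows, both the highest and the lowest lay in 25S. In the stretch at 275 to 330 printed above, 24 of 29 sites were open, and the mean DMS rate was 1.47% to 1.72% per library, against 0.313% to 0.402% in untreated libraries. It leads into the longest run of open sites in the profile, 15 A and C in a row at positions 311 to 339. The opposite end of the spacer, between the A0 and A1 cleavage sites, had the longest run without an open site, 22 A and C at positions 619 to 664. Both are printed as the longest runs of either kind.
5' ETS 311 to 339, all A and C open: CuAuuuCAAAgAAuuCAAACuugggggAA
5' ETS 619 to 664, no A or C open: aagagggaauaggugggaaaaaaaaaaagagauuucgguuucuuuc
Over the first run the mean rate was 1.60%, 1.497%, 1.503% and 1.58% with DMS, against 0.212%, 0.249%, 0.234% and 0.199% without. Over the second it was 0.603%, 0.946%, 0.864% and 0.920% with DMS, against 0.672%, 0.717%, 0.712% and 0.673% without, so replicate 1 was below its control and the others slightly above. In the second run 16 sites were low and 6 undecided. The undecided ones include A636 and C664, with high untreated means of 4.07% and 3.47%, which raise the mean rates of the run. Their signals were -0.36 and 1.29 percentage points.

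In 18S the high stretch at nucleotides 1671 to 1722 lies in helix 44 and had 11 open and 10 low sites of 27, with 1.68% to 2.05% per DMS library and 0.479% to 0.666% per untreated one. The other 6 were undecided. The low stretch of the central domain, 18S 619 to 674, had 3 open and 15 low sites of 22, with 0.780% to 0.973% per DMS library and 0.596% to 0.831% per untreated one. It holds the sites with the highest untreated means of all, A1319 at 5.10% and A1361 at 4.36%. Their signals, -0.09 and -0.69 percentage points, lowered the mean by which it was ranked. Both low stretches of 25S had 16 sites used, with 2 open at nucleotides 6 to 31 and 3 at 1283 to 1308. No site of ITS2 had the depth.

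Cleavage sites, 5 nt on either side of each, are printed with the segments paired to U3 and U14, since these are the places where the pre-rRNA is cut or bound by a small nucleolar RNA. Their positions were entered from general knowledge.
A0 site, positions 605 to 614: aaguaucuuC
A1 site, positions 696 to 705: auaguuauCu
D site, positions 2496 to 2505: CauuaaagaA
A2 site, positions 2708 to 2717: ACAaCaCAcu
U3 3' hinge segment, positions 281 to 291: ggAuuuggugg
U3 5' hinge segment, positions 470 to 479: uCaaagagug
U14 segment, 18S nucleotides 83 to 95: gAAAcugCgAaug
5' end of 18S, nucleotides 1 to 25: uauCugguugAuccugCCAguAguc

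Of the 4 cleavage sites, A2 had the highest mean signal in each replicate. Depth at its sites was close to the minimum, with 111 to 119 reads in the shallowest library of each. Its 9 A and C had a mean signal of 1.42, 1.31, 1.30 and 1.06 percentage points in replicates 1 to 4, and 6 of them were open, against 38.3% of all A and C sites. Without untreated replicate 3 the count was 3, without DMS replicate 3 it was 4, and with DESeq2 4. C2714, just past the cut, read 2.46%, 1.63%, 1.96% and 4.38% with DMS and 0.559%, 0.271%, 0.589% and 0.885% without (log2 change 2.005, SE 0.54, edgeR adjusted p = 0.00191). A2715 averaged 1.70% ± 0.46 with DMS and 0.105% ± 0.131 without. A2710 averaged 2.75% ± 2.28, a mean raised by 6.14% in DMS replicate 1 where the other replicates had 1.23% to 2.05%.

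At the other cleavage sites the signal was small. Around A0 it was -0.007, 0.249, 0.180 and 0.128 percentage points, with 1 of 5 sites open, and around the D site, the 3' end of 18S, 0.232, 0.198, 0.480 and -0.378, with 2 of 7 open. The calls at A0 and D ended without DMS replicate 3 and with DESeq2, and the D calls also without untreated replicate 3. Around A1 it was 0.222, 0.353, 0.421 and 0.253. There C704, the 4th nucleotide of 18S, was open at 1.11%, 1.21%, 1.11% and 1.31% with DMS and 0.177%, 0.134%, 0.177% and 0.136% without (edgeR adjusted p = 4.23e-09), while A696, A698 and A702 were not called.

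The first 25 nucleotides of 18S pair with box A of U3 in the processome and later form part of the central pseudoknot. Of their 10 A and C, 6 were open, against 38.3% of all A and C sites and 52.2% of those in the 5' domain of 18S. C717 led the open sites, with 2.60%, 2.90%, 1.83% and 2.71% in DMS libraries. Its untreated rates were 0.670%, 0.156%, 0.271% and 0.767% (edgeR adjusted p = 7.01e-12). The open C717, C718 and A719 lie side by side, at nucleotides 17 to 19, and C713 and C714 before them were low, at 0.333% ± 0.252 and 0.218% ± 0.154 with DMS.

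The hinge segments of the 5' ETS pair with U3 and anchor it on the pre-rRNA. In the 5' hinge segment 1 of 5 A and C was open, C471, and it was so at a low level, 0.521% ± 0.124 with DMS and 0.177% ± 0.126 without (edgeR adjusted p = 0.0102). The call ended without DMS replicate 3, without untreated replicate 2 and with DESeq2, and A473 was added with the replicate block (edgeR adjusted p = 0.0148). The 4 A of that segment had mean signals of 0.21 to 0.52 percentage points and were undecided. The 3' hinge segment holds a single A or C, and this A283 was open, at 3.31%, 1.63%, 2.09% and 2.24% with DMS and 0%, 0.848%, 0.683% and 0% without (edgeR adjusted p = 6.59e-07).

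U14 pairs with 18S early in folding, and its release from pre-ribosomes depends on Has1. Of the 7 A and C of the U14 segment 5 were open, against 38.3% of all A and C sites. In the 5' domain of 18S, where the segment lies, 52.2% were open, 108 of 170 A and 36 of 106 C. Whether the segment differed from its domain was not tested. Of the 5 open sites 2, A784 and C790, were called without any 1 of the 8 libraries and with DESeq2. Without DMS replicate 3 or untreated replicate 3 the count was 2, and without DMS replicate 2 or untreated replicate 1 or 2 it was 3. The segment's signal was 0.559, 0.553, 0.576 and 0.662 percentage points in replicates 1 to 4, between the domain's means of 0.755 at A and 0.449 at C. A784 was the most reactive, at 1.80%, 1.93%, 1.34% and 2.53% with DMS and 0.077%, 0.472%, 0.483% and 0.270% without (edgeR adjusted p = 5.37e-07). C787 and A793 were not called, with A793 at 0.752% ± 0.383 with DMS and 0.765% ± 0.100 without.

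Of 6 listed bases of known function in mature subunits that had the depth, 5 were called open, all of them A. For comparison, 38.3% of all A and C sites and 48.8% of all A sites were open. In the 3' minor domain, which holds the decoding and dimethylated adenines, 61.2% of the A sites were open. The decoding adenines A2455 and A2456 (18S 1755 and 1756) were both open, the second more evenly, at 1.01%, 1.16%, 1.13% and 1.44% with DMS and 0.195%, 0.365%, 0.245% and 0.218% without (edgeR adjusted p = 5.32e-05). At A2455 the rates of 0%, 0.676%, 1.16% and 0.249% with DMS overlapped those without, 0% to 0.440% (edgeR adjusted p = 0.00128), and the call ended without DMS replicate 3 and with DESeq2. The adenines of the loop of helix 45 that are dimethylated late, A2481 and A2482 (18S 1781 and 1782), averaged 1.70% ± 0.40 and 2.12% ± 0.96 with DMS, against 0.308% ± 0.239 and 0.852% ± 0.283 without, and both were open, the second not without DMS replicate 3. The C acetylated in helix 45, C2473 (18S 1773), was low, at 0.405% ± 0.276 and 0.801% ± 0.378. In 25S, A6071 of the peptidyl transferase centre (25S 2820) was called open at 0.537% ± 0.369 and 0.123% ± 0.151, with overlap between the groups (edgeR adjusted p = 0.0328). That call ended without DMS or untreated replicate 2 or 3. The acetylated C of helix 34, the m1A bases of 25S and the sarcin-ricin adenine were under the depth minimum.

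DMS signal was higher where the sequence alone predicted no pairing. RNAplfold was run on the pre-rRNA without proteins or snoRNAs. A sites predicted unpaired with a probability of 0.8 or more had a signal of 0.774, 1.16, 1.29 and 1.18 percentage points in replicates 1 to 4, against 0.226, 0.272, 0.330 and 0.359 at A sites with 0.2 or less. The difference was 0.803 ± 0.179 (SD, n = 4), or 1.21 at a depth of at least 500, and had the same sign in 4 of 4 replicates (exact sign-flip permutation p = 0.125, the smallest possible). Of the 353 A predicted unpaired 239 were open (67.7%), and of the 221 predicted paired 42 (19.0%). C sites had 1.49 ± 0.04 at the 57 predicted unpaired and 0.122 ± 0.010 at the 376 predicted paired, so that among bases predicted unpaired the mean of C was above that of A.

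The same direction held within regions. In the 5' ETS, A sites had 1.44 ± 0.26 where predicted unpaired and 0.206 ± 0.040 where predicted paired, and 58 of the 68 C predicted paired were low (85.3%). In 18S the values for A were 1.21 ± 0.25 and 0.350 ± 0.083, and in 25S 0.949 ± 0.208 and 0.270 ± 0.116. Predicted pairing and reactivity disagreed at 28 A that were predicted unpaired but low, and at 42 A that were predicted paired but open.

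**Figure D5:**
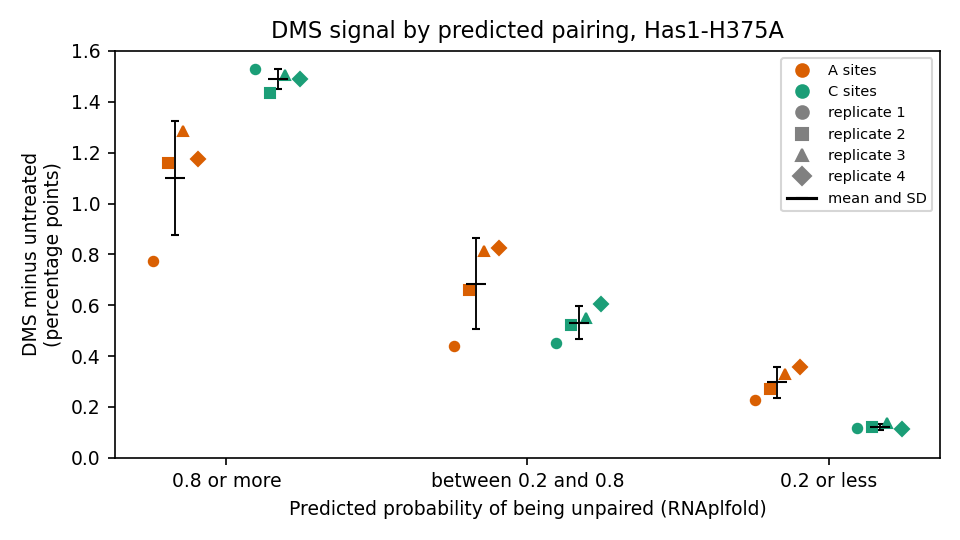
DMS signal in percentage points (y axis) averaged over A sites (orange, left) and C sites (green, right) in 3 ranges of the predicted probability of being unpaired (x axis), in each replicate, with mean and SD of 4 replicates. Means are 1.10 at A predicted unpaired and 0.297 at A predicted paired, and 1.49 at C predicted unpaired and 0.122 at C predicted paired.

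The neighbouring base went with the signal of C more than with that of A. C after C had 0.125 ± 0.049 percentage points (147 sites, 11 open) and C after A 0.561 ± 0.047 (170 sites, 57 open), with no overlap between the replicates. C before C had 0.222 ± 0.015 and C before A 0.592 ± 0.055. Among A sites, those before G had 0.905 ± 0.157 and those before U 0.576 ± 0.134, lower before U in 4 of 4 replicates. These differences between contexts were not tested.

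The mutant was also set against WT processomes. Over the 1719 A and C sites with the depth in all 16 libraries, the same fit called 666 open in H375A and 600 in WT. Over all 4 bases it called 685 of 3682 nucleotides higher in H375A (18.6%) and 615 in WT (16.7%). The 510 open in both made up 76.6% of the H375A list and 85% of the WT list. A site open in one genotype alone is not shown to differ. The test of that difference, the genotype by treatment term of edgeR over 16 libraries, called 0 of 3682 nucleotides (0%, lowest adjusted p = 0.999), with 102 at an unadjusted p under 0.05 (2.77%). By region, H375A minus WT ranged from -0.132 percentage points, at A sites of 5.8S, to 0.078, at C sites of ITS1 up to A2, and none of 16 exact permutation tests had a p under 0.371. At the A sites of the 5' ETS the signal was 0.679 ± 0.113 in H375A and 0.763 ± 0.104 in WT (exact permutation p = 0.371), and at those of the 3' minor domain 1.19 ± 0.26 and 1.29 ± 0.33 (exact permutation p = 0.514, SD, n = 4).

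Depth set the precision of single values. Total mutated reads ran from 9652 to 166512 in the DMS libraries and from 5955 to 101588 in the untreated ones. The median depth over the 1766 sites was 221, 853, 4041.5 and 309 reads in DMS replicates 1 to 4, and 400.5, 1025, 4334.5 and 232 in untreated replicates 1 to 4. For a rate of 1%, counting error alone gives 95% Wilson limits of 0.290% and 3.38% with 221 reads, and limits of 0.744% and 1.34% with 4334.5 reads.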

How the data were processed

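DMS-MaPseq mutation profiles of 8 libraries from Has1-H375A processomes, and of 8 WT libraries for comparison, were used. Per the file headers, the authors deposited counts for every nucleotide (mutated reads, covering reads and effective depth) and a rate as a fraction, which equals mutated reads over effective depth with no untreated rate subtracted. The aligner, mutation caller, versions and read filters are not given in the sources used here. PCR duplicates were not identified as molecules, and the many rDNA copies were read as 1 sequence. 18S, 5.8S and 25S were found by their first nucleotides and their RefSeq lengths (assembly R64).

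Mutated reads were compared with edgeR 4.0.16 in R 4.3.3 (quasi-likelihood test, offset log effective depth, no scaling, treatment alone), with Benjamini-Hochberg adjustment over all nucleotides of 4 bases with a depth of at least 100 in all libraries used. DESeq2 1.42.0 was an alternative. RNAplfold 2.7.2 used a window of 200, a span of 150 and 30 °C. Named sites were the 12 with the largest signal, the 2 largest per region, the listed functional sites and sites called lower; sites named for a high untreated rate were chosen after their values were seen. Exact permutation tests were two-sided. The edgeR test alone was tried on simulated counts. These had the same assumed spread at every site, which need not be the spread of these libraries. The sites, lists and rules were chosen with earlier results of these data known. The series' design gives each sample its own untreated control, so equal numbers were taken as pairs. Deviations from the group means correlated within pairs with r of 0.238, 0.122, 0.315 and -0.010 for replicates 1 to 4. Between libraries of unequal number r ran from -0.239 to 0.120, so replicates 2 and 4 gave little sign of pairing.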

Additional observations from a re-analysis of the deposited data

Results flagged for a closer look

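Of 78 groups of 4 libraries tested for an outlying value, 5 had one where chance gives about 3.9. The untreated rate at C sites of 5.8S was 0.467% in replicate 2, against 0.275% to 0.304% in the others. At A6587 and A5940 untreated replicate 3, the deepest, read 0.203% and 0.205% where the other untreated libraries had 0 mutated reads. At A2585 untreated replicate 1 read 0.662%, against 0.415% to 0.425%. At C2575 DMS replicate 4 read 4.26%, against 2.33% to 2.59% in the other DMS libraries. In each case the DMS values stayed above the untreated ones.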

How the results depend on the processing

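The 676 open sites became 106 with a depth minimum of 500, 437 with DESeq2 and 440 to 712 with 1 library left out. With the replicate number as a block 712 were called, 654 of them shared, and with scaling from G and U 583. The lone lower site became 0 with a depth minimum of 500, with at least 10 mutated reads, with the replicate block or with DESeq2, which gave A3667 no adjusted p, 2 with scaling from G and U, 4 with A and C fitted alone and 0 to 3 with 1 library left out. The 510 sites open in both genotypes became 96 at a depth of 500. Of the 17 region and base pairs, 5 of 5 passed at a depth of 500, 12 with medians, and 0 with the replicate block or without any 1 replicate, where no p can fall below 0.125 or 0.1; the DMS mean was higher in all 17. The per-base p of 0.0286 became 0.125 with the replicate pairs. Among 51 listed functional sites the block added 4 calls (A473, C725, A2504 and C2716) and ended none, and it changed 1 of 22 calls named by size, at A3667. Leaving out 1 library ended a listed call in 37 of 408 cases and added one in 9. DESeq2 ended 9 calls among the 48 sites it gave an adjusted p, and gave none to the open A2708 and A6071. Both totals, 408 and 48, include sites that were not open and had no call to lose, so the share of calls lost was higher. Differences between the 5' ETS and 18S, A and C, and predicted unpaired and paired sites kept the sign of their mean under every alternative run, though the 5' ETS was lower in 3 of 4 replicates with medians, pooled reads or a depth of 500, and the interaction stayed at 0 calls. Of the 22 sites named by size, A3667 alone lost its call with the block, in 1 case, or with a library left out, in 6. DESeq2 ended none of the 21 calls it gave an adjusted p. Single named sites were not followed under the other settings. Depth at A2412, the site with the largest signal, went down to 175 reads, so a minimum of 500 leaves it out.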
